A study of Mus musculus with 19 samples.

Results

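Expression of 9 genes of neural progenitors and neurogenesis was followed in mice with 1 mutated copy of Wiz. The genes were the Notch ligand gene Dll1, the receptor gene Notch1, the Notch target genes Hes1 and Hes5, the progenitor genes Sox2, Nes and Vim, and the neurogenic genes Neurog2 and Eomes. They were taken by name and matched by symbol to 9 of the 41388 Ensembl gene identifiers in the count tables. RNA was sequenced from 16 mice labelled FVB, of a line kept on the FVB/NJ background, and each genotype is named below by its Wiz alleles. Whole brains came from embryos at 13.5 days post coitum (E13.5), with 3 Wiz +/+ and 3 Wiz MommeD30/+ males and 2 Wiz +/+ and 2 Wiz MommeD30/+ females. Cerebellum came from males aged 56 days post partum, 3 of each genotype. MommeD30 is an ENU-induced loss-of-function allele of Wiz, a zinc finger protein found with the histone methyltransferases G9a and GLP. Wild type and mutant animals alike belong to a line in which all mice carry a GFP reporter transgene driven by an erythroid promoter. The study asked whether a reduced dose of Wiz changes gene expression in developing and adult brain. ChIP-seq samples of the same series were not analysed here.

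In the embryonic brain, radial glia line the ventricle and divide to renew themselves or to give rise to neurons. A cell that makes the ligand Delta-like 1 activates Notch receptors on its neighbours. The cleaved receptor then enters the nucleus, joins the DNA-binding protein RBPJ and switches on Hes genes, whose products repress proneural genes such as Neurog2 and so hold the neighbour in the progenitor state. Cells that escape this repression express Neurog2 and, in the cortex, pass through an intermediate progenitor stage marked by Eomes (Tbr2). In the adult cerebellum no such germinal zone remains, but Bergmann glia keep Sox2 and Vim, and unipolar brush cells, a class of excitatory interneuron, express Eomes.

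Promoters of 3 members are shown, to place the motif bound by RBPJ beside the genes the results turn on. Hes5 is a direct Notch target, and Nes and Eomes had the largest falls of the called genes in mutant cerebellum, as given below. Each window runs from 250 bases before to 50 after the RefSeq start on GRCm38.p6, 5′ to 3′ on the strand of the gene, with the RBPJ motif GTGGGAA or its reverse complement TTCCCAC in capitals.
Hes5, chr4:154960673-154960972, plus strand: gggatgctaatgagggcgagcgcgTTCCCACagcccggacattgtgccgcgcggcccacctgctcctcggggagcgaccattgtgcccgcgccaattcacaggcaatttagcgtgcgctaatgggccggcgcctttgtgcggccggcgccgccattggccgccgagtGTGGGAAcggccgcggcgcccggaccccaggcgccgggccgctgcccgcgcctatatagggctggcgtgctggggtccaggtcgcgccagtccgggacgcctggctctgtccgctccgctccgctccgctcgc
Nes, chr3:87970843-87971142, plus strand: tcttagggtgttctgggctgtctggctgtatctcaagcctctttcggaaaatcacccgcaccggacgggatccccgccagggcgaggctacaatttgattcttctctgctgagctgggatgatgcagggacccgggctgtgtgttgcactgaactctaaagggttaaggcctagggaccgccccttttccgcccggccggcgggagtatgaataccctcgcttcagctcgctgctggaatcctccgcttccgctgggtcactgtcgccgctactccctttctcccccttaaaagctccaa
Eomes, chr9:118477939-118478238, plus strand: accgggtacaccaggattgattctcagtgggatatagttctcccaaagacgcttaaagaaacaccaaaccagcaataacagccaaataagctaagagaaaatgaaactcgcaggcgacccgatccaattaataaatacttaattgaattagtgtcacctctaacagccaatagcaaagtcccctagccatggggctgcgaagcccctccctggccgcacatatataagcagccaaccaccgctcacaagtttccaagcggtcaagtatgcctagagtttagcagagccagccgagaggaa
The Hes5 window held 2 matches, which began 226 and 83 bases before the start and lay on opposite strands. Hes1, the other Notch target gene of the set, had no window in the RefSeq table, so its promoter was not searched. Of the 8 members with a window, Hes5 was the only one with a match, and 6.38% of all 32851 windows of this length held at least 1. Both strands were also searched for the proneural E-box CAGATG or CATCTG, which none of the 8 windows contained and 17.15% of all windows did. A match to these letters is a description of the window only.

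The mutated gene followed the labels in every library. Total counts per library ran from 16386029 to 50459755. Wiz was at 182 to 200.1 CPM (counts scaled to the library's total) in the 5 wild type brains and at 118 to 130 CPM in the 5 mutant brains, and at 95.4 to 95.5 CPM against 66.6 to 67.7 CPM in cerebellum. The log2 fold change of Wiz was -0.61 ± 0.03 (SE; adjusted p = 2.65e-07) over all brains and -0.50 ± 0.03 (adjusted p = 9.90e-08) in cerebellum. Tissue markers fitted the labels: Emx1, a gene of the dorsal forebrain, was at 8.32 to 21.6 CPM in the brains and at 0 to 0.204 CPM in the cerebellums. The second female wild type brain stood apart in the summed level of 10 genes of dividing cells, at 933 CPM against 1156 to 1397 CPM in the other 9 brains, and values without it are given below where they move most.

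In the E13.5 brain, all 9 genes were expressed, and they spanned a wide range once counts were divided by exon length. In the 5 wild type brains, Vim, an intermediate filament of radial glia, was highest at 147 ± 7.35 RPKM (CPM per kilobase of merged exon; mean ± SD, n = 5). Nes, the intermediate filament nestin, followed at 63.9 ± 5.40 RPKM, and Sox2, a transcription factor that maintains the progenitor state, at 63.1 ± 6.97 RPKM. These last 2 genes did not differ beyond their spread. The proneural factor gene Neurog2 stood at 38.2 ± 7.30 RPKM, Hes5 at 23.0 ± 1.68 RPKM and Dll1 at 15.7 ± 0.971 RPKM, each step with no overlap between samples. Eomes at 14.7 ± 6.70 RPKM overlapped both Dll1 above it and Notch1 below it at 12.3 ± 0.357 RPKM, and Hes1 was lowest at 9.25 ± 1.23 RPKM. Thus of the 2 Hes genes, Hes5 was the more abundant per length in every wild type brain.

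**Figure D1:**
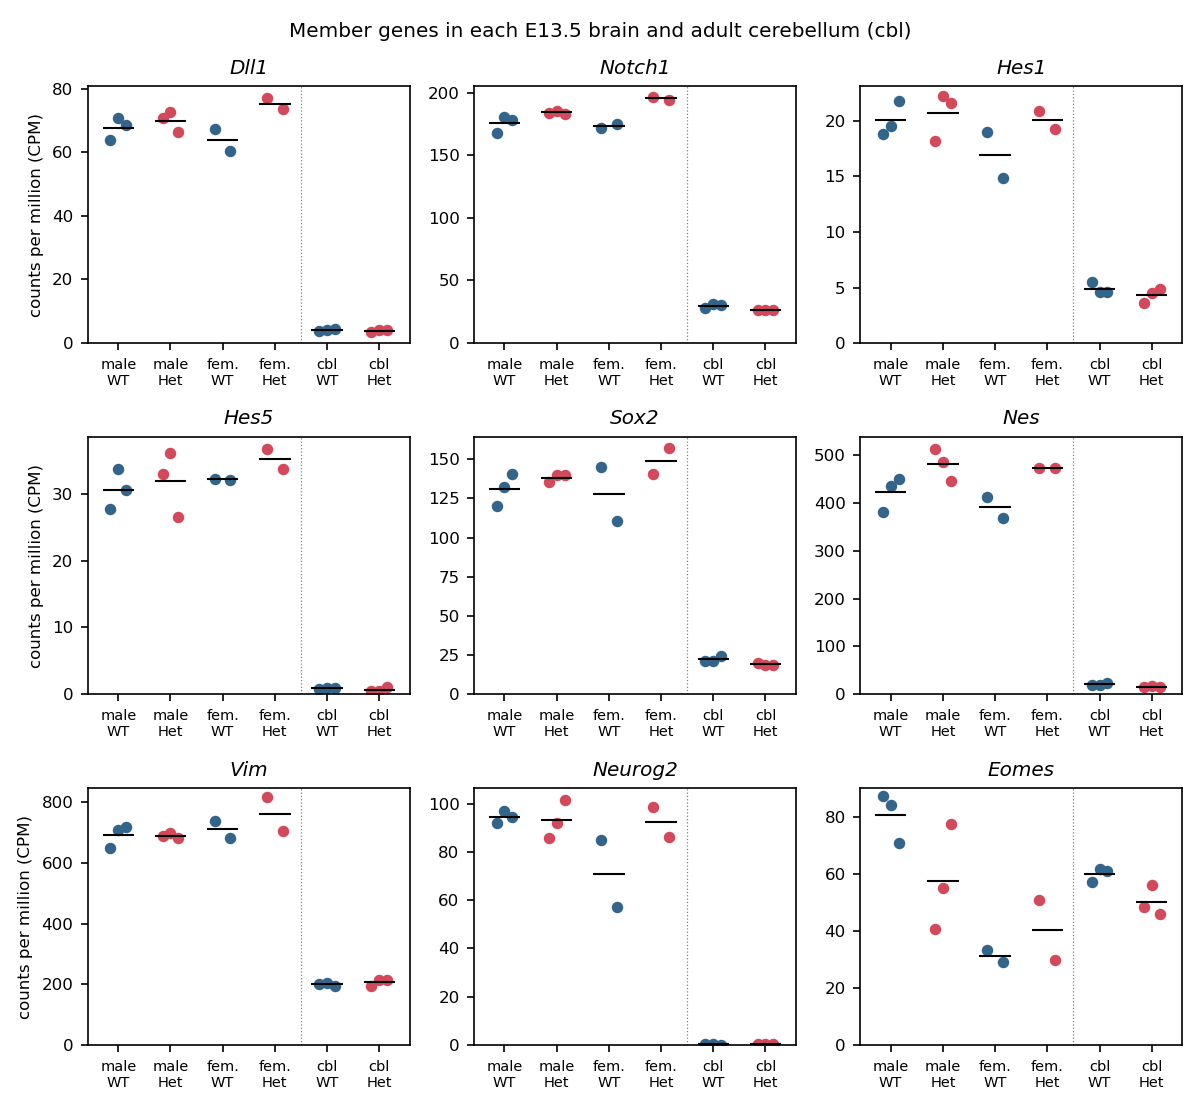
CPM of each gene (vertical axes, from 0) in the male and female E13.5 brains (left of the dotted line) and adult male cerebellums (cbl, right of it) of Wiz +/+ (WT, blue) and Wiz MommeD30/+ (Het, red) mice; each point is 1 animal and each black line a group mean. Every gene but Eomes is far higher in the embryonic brain than in the cerebellum, and Eomes ranges from 29.1 to 87.2 CPM among the brains.

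In mutant E13.5 brains none of the 9 genes passed the test. In the fit of all 10 brains with sex as a covariate, 0 of 9 reached an adjusted p of 0.05 (edgeR quasi-likelihood test, Benjamini-Hochberg adjustment over 17620 genes), where 0.477% of all genes did. Within males the count was 0 of 9 against 0.196% of 16848 genes, and within females 0 of 9 against 0.111% of 17152 genes. At an unadjusted p under 0.05 there were 3 genes over all brains, 2 in males and 3 in females, where 11.8%, 8.45% and 6.4% of all genes reached that level. DESeq2's Wald test called 2 of the 9 over all brains, namely Nes and Notch1, 1 in females, namely Nes, and 0 in males. Among all genes it called 185 of 26461 over all brains and 41 of 24969 in females. In the fit of all brains 8 of the 9 fold changes lay above 0, with a median of 0.12 on the log2 scale, against 8749 of 17620 genes and a median of 0.00 over all genes. Without the second female wild type brain, an alternative chosen after seeing the data for this median and for those of the gene lists, 8 of 9 still lay above 0 and the median was 0.06.

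The ligand and the receptor had small differences with narrow intervals. Dll1 (ENSMUSG00000014773, chr17:15367354-15376872, minus strand) was at 63.8, 70.7 and 68.4 CPM in wild type males and 70.9, 72.5 and 66.3 CPM in mutant males. Among females it was at 67.3 and 60.3 CPM in the wild type and 77.1 and 73.4 CPM in the mutant. The male groups overlapped and the female groups did not, where 36.5% of genes had female groups that did not overlap. Over all brains the log2 fold change was 0.13 ± 0.05 (SE; 95% interval 0.02 to 0.23; adjusted p = 0.330). Without the second female wild type brain the value for Dll1 was 0.09 (adjusted p = 0.595). An overlapping noncoding gene on the opposite strand, A930024N18Rik, covers 20.55% of the exon bases of Dll1 and had 71 to 251 counts per library, so reads there cannot be assigned without the strand. Notch1 (ENSMUSG00000026923, chr2:26457903-26516663, minus strand) was at 168, 181 and 178 CPM in wild type males and 172 and 175 CPM in wild type females. In mutants it was at 184, 186 and 184 CPM in males and 197 and 195 CPM in females. All 5 mutant brains lay above all 5 wild type brains, a separation that 1.66% of genes showed (12.3% within males alone), yet the log2 fold change was only 0.11 ± 0.03 (95% interval 0.05 to 0.17; adjusted p = 0.161). Without the second female wild type brain the value for Notch1 was 0.10 (adjusted p = 0.335).

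The Notch target genes passed no test. Their genotype groups did not overlap in females, a separation that 36.5% of 17152 genes showed there. Hes1 (ENSMUSG00000022528, chr16:30064384-30067796, plus strand) and Hes5 (ENSMUSG00000048001, chr4:154960923-154962371, plus strand) encode repressors of proneural genes. Hes1 ran from 14.9 to 21.8 CPM in the 5 wild type brains and from 18.2 to 22.2 CPM in the 5 mutants, with the lowest value in the second female wild type brain. Hes5 ran from 27.8 to 33.8 CPM and from 26.7 to 36.8 CPM. The male groups overlapped in both genes, while in females both mutants lay above both wild types, with Hes1 at 14.9 and 19.1 CPM against 19.3 and 20.9 CPM and Hes5 at 32.2 and 32.3 CPM against 33.8 and 36.8 CPM. The log2 fold changes over all brains were 0.12 ± 0.08 (95% interval -0.05 to 0.29; adjusted p = 0.589) for Hes1 and 0.10 ± 0.07 (95% interval -0.06 to 0.25; adjusted p = 0.643) for Hes5. Without the second female wild type brain the Hes1 value was 0.05 (adjusted p = 0.888). Of the exon bases of Hes5 31.8% lie opposite the noncoding gene Gm20421, which had 8 to 81 counts per library.

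Among the progenitor genes, Nes came closest to the threshold. Nes (ENSMUSG00000004891, chr3:87971078-87980451, plus strand) was at 381, 436 and 450.4 CPM in wild type males and 513, 486 and 446 CPM in mutant males. Among females it was at 412 and 370 CPM in the wild type and at 474.1 and 473.9 CPM in the mutant. The third mutant male overlapped the wild type, and the other 4 mutants lay above every wild type brain. The log2 fold change was 0.22 ± 0.05 over all brains (95% interval 0.11 to 0.33; adjusted p = 0.103), 0.19 ± 0.06 in males (adjusted p = 0.433) and 0.28 ± 0.06 in females (adjusted p = 0.7005). It passed the threshold over all brains without the third mutant male (0.25, adjusted p = 0.0385) and was 0.19 (adjusted p = 0.187) without the second female wild type brain. Sox2 (ENSMUSG00000074637, chr3:34650405-34652461, plus strand) ran from 110.7 to 145 CPM in wild type and from 135 to 157 CPM in mutant brains, with a log2 fold change of 0.13 ± 0.07 (adjusted p = 0.467). Without the second female wild type brain, which held the lowest Sox2 level, that fold change was 0.06 (adjusted p = 0.740). Vim (ENSMUSG00000026728, chr2:13573927-13582826, plus strand) ran from 648 to 739 CPM and from 682 to 815 CPM, with a log2 fold change of 0.03 ± 0.04 (95% interval -0.06 to 0.12; adjusted p = 0.817).

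Of the neurogenic genes, Neurog2 was even in males and uneven in females. Neurog2 (ENSMUSG00000027967, chr3:127633135-127635631, plus strand) was at 91.8, 96.9 and 94.6 CPM in wild type males and 85.6, 92.1 and 101.4 CPM in mutant males. Among females the second wild type brain had 57.1 CPM, the lowest of the 10, against 84.8 CPM in the other wild type and 98.6 and 86.4 CPM in the mutants. The log2 fold change was -0.02 ± 0.05 in males (adjusted p = 0.935) and 0.38 ± 0.16 in females (adjusted p = 0.776). Over all brains it was 0.14 ± 0.10 (adjusted p = 0.623). Without the second female wild type brain the female value was 0.12 (adjusted p = 1.0) and that over all brains 0.02 (adjusted p = 0.942). With that brain as the lone female wild type, the female values were 0.69 for Neurog2, 0.43 for Sox2 and 0.36 for Nes. The Neurog2 difference between the sexes was then 0.72.

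Eomes varied most of the 9 genes from brain to brain. Eomes (ENSMUSG00000032446, chr9:118478212-118486132, plus strand) was at 87.2, 84.2 and 70.8 CPM in wild type males and 40.6, 54.9 and 77.3 CPM in mutant males. In females it was at 33.4 and 29.1 CPM in the wild type and 50.9 and 29.9 CPM in the mutants. The third mutant male lay among the wild type males, and both female wild type brains lay below every male. The log2 fold change was -0.50 ± 0.17 in males (95% interval -0.86 to -0.13; adjusted p = 0.460), 0.37 ± 0.21 in females (95% interval -0.13 to 0.86; adjusted p = 0.821) and -0.16 ± 0.20 over all brains (adjusted p = 0.786). Without the third mutant male the male value was -0.76 (adjusted p = 0.00758), and without the second female wild type brain the value over all brains was -0.28 (adjusted p = 0.733). The difference between the sexes was 0.86 ± 0.33 (95% interval 0.14 to 1.58) with an adjusted p of 0.985, and the genotype by sex test called 0 of 9 genes and 0 of all 17620 genes (0.0%; 701 at an unadjusted p under 0.05, and 0 of 9 members by DESeq2's Wald test).

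Emx1 and Tbr1, chosen after their values were seen, varied with Eomes across the brains, while other genes of the same lists, such as Dcx, Tubb3, Map2 and Dlx2, did not follow it. Emx1, a transcription factor of the developing cortex, was at 21.5, 21.6 and 16.1 CPM in wild type males and 11.7, 17.0 and 19.9 CPM in mutant males. It was at 9.94 and 8.32 CPM in wild type females and 18.0 and 10.2 CPM in mutant females. Tbr1, which marks early cortical neurons, was at 122, 118 and 98.9 CPM in wild type males, 72.8, 82.1 and 118 CPM in mutant males, 67.1 and 49.0 CPM in wild type females and 86.9 and 56.3 CPM in mutant females. As for Eomes, the first mutant male was the lowest male in both genes and the third lay within the range of the wild type males, and the second lay below that range in Tbr1 but not in Emx1. The part of these genes in the Eomes difference was not tested, and in whole tissue fewer cells of a type and less RNA per cell cannot be told apart. The spread within groups of 1 sex and genotype, as a residual SD of log2 CPM on 6 degrees of freedom, was 0.363 for Eomes, 0.189 for Neurog2 and 0.0333 for Notch1, against a median of 0.0656 over 12006 genes with a mean of at least 5 CPM.

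**Figure D2:**
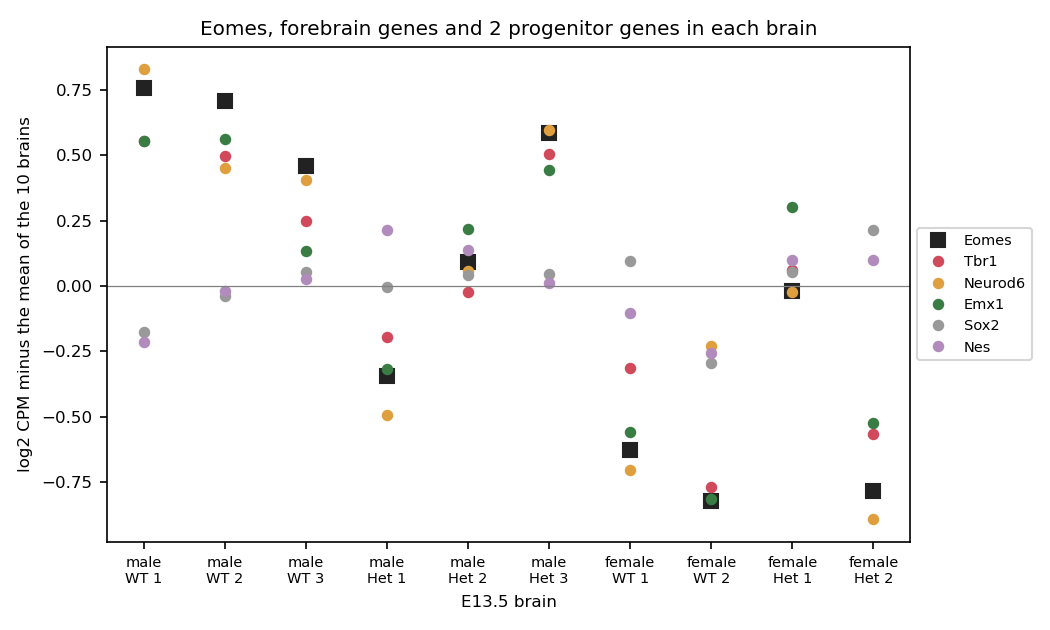
Log2 CPM minus the mean over the 10 E13.5 brains (vertical axis) for Eomes (black squares), the forebrain gene Emx1, the cortical neuron genes Tbr1 and Neurod6, and the progenitor genes Sox2 and Nes, in each brain by sex, genotype and replicate. Eomes and the 3 forebrain and neuron genes are high in the wild type males and in male Het 3 and low in most females, over a range of -0.82 to 0.76 for Eomes, while Sox2 stays between -0.29 and 0.21.

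The genes that most resembled each member over the 10 brains were ranked after centring within sex, by Pearson's r of log2 CPM over 12005 other genes, and the ranking is a description, since the points share libraries, genotype and depth. Sox2 ran with its close relative Sox1 (r = 0.97), Nup155 (r = 0.97) and Cep95 (r = 0.97). Eomes ran with Zbtb18, a repressor gene of cortical neurons (r = 0.98), Celsr1 (r = 0.97) and Clip3 (r = 0.97). The nearest gene was Ildr2 or Zfp41 for Nes (both r = 0.98), Tra2b for Neurog2 (r = 0.97), Heatr1 for Notch1 (r = 0.94), Spata13 for Dll1 (r = 0.97), Surf4 for Vim (r = 0.97), Dnaaf2 for Hes1 (r = 0.97) and Inpp5e for Hes5 (r = 0.90). On ranks, Spearman's rho was 0.73 for Neurog2 with Tra2b and 0.85 for Sox2 with Nup155, but 0.98 for Eomes with Zbtb18. None of the 9 members stood among the nearest 3 genes of another.

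The wider pathway lists gave no calls in the embryonic brains. Over all brains 0 of 11 Notch receptors and ligands, 0 of 22 Notch processing and nuclear cofactor genes, 0 of 9 Notch target genes, 0 of 19 radial glia genes, 0 of 19 proneural and intermediate progenitor genes, 0 of 14 newborn neuron genes and 0 of 10 genes of dividing cells passed (0.477% of all genes did). The 11 marker lists of other cell types and brain regions also held 0 called genes. At an unadjusted p under 0.05 the 7 pathway lists held 5, 2, 2, 3, 2, 5 and 1 genes in the same order, where 11.8% of all genes reached that level. The fold changes lay above 0 for 10 of 10 genes of dividing cells, with a median of 0.12 on the log2 scale, and below 0 for 13 of 14 newborn neuron genes, with a median of -0.08. Without the second female wild type brain these were 9 of 10 genes with a median of 0.04 and 10 of 14 genes with a median of -0.06. Among males alone the dividing cell genes lay above 0 in 6 of 10 cases with a median of 0.01, and among females in 10 of 10 with a median of 0.28 (0.14 without that brain). The second female wild type brain, lowest in dividing cells, was also highest in the summed level of the newborn neuron genes, at 8375 CPM against 7572 to 8078 CPM in the other 9 brains.

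**Figure D3:**
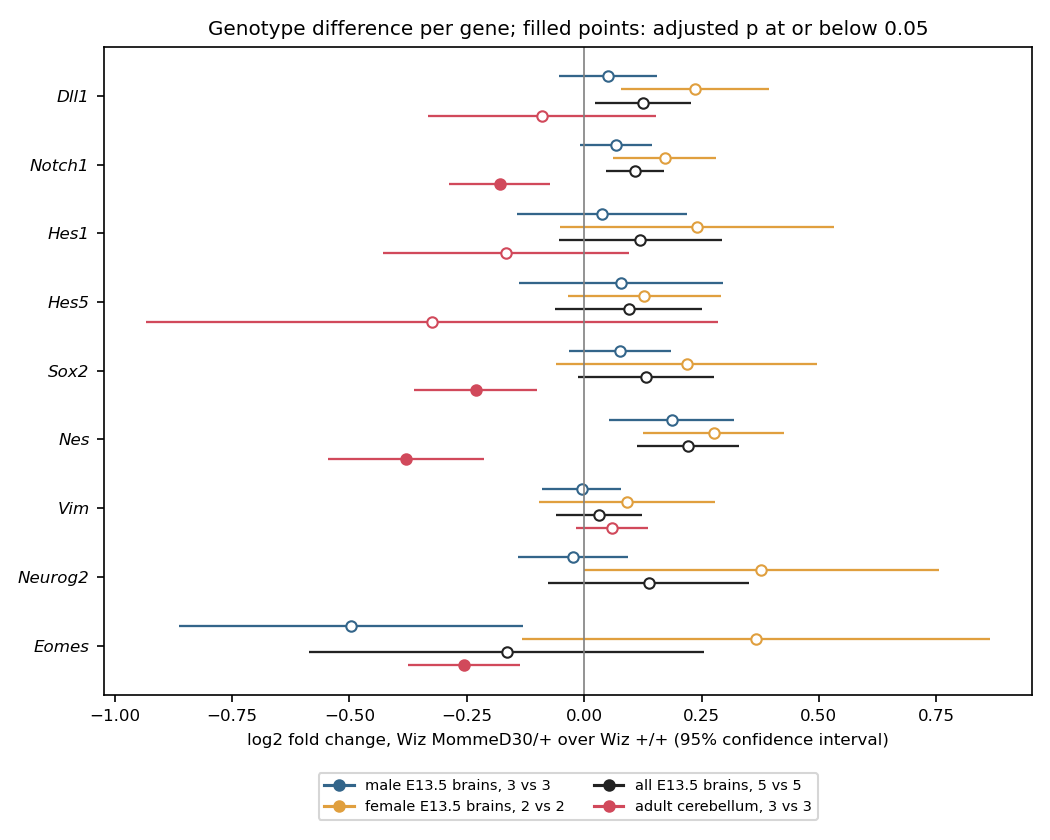
Log2 fold change of Wiz MommeD30/+ over Wiz +/+ with its 95% confidence interval (horizontal axis) for each gene in male, female and all E13.5 brains and in adult cerebellum; filled points have an adjusted p at or below 0.05. The only filled points are Notch1, Sox2, Nes and Eomes in cerebellum, at -0.18 to -0.38, and Neurog2 has no cerebellum point because its counts were below the filter.

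Adult cerebellum held far less of most of these genes than the E13.5 brain, with Eomes as the exception. Between the 3 wild type males of each tissue, all 9 genes were lower in cerebellum by the edgeR test, a direction that 43.6% of 16840 genes shared, and 86.5% of genes were called in either direction. Tissue and age cannot be told apart in this comparison, and the 9 fold changes are relative to a median gene at -0.02 on the log2 scale, which moved to -0.23 when libraries were scaled by total counts alone. For 8 of the 9 genes the level was also past the study's lower fold limit of 0.7, and 69.3% of all genes were called past its lower or upper limit.

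Neurog2 was close to absent from cerebellum. The 3 wild type cerebellums held 20 Neurog2 counts in all, between 3 and 9 per library, or 0.221 CPM with an exact Poisson 95% interval of 0.134 to 0.340 CPM that covers counting error only. The wild type male brains were at 94.4 CPM, so cerebellum was at 0.234% of their level. This and the percentages below are ratios of mean CPM, which uses total counts. The fold changes beside them use the normalisation of the test, which puts cerebellum somewhat higher. Hes5 was at 2.76% of the brain level, with 24 to 27 counts per cerebellum (log2 fold change -4.95 ± 0.12; adjusted p = 4.43e-15). Nes was at 4.85% (-4.15 ± 0.07; adjusted p = 1.58e-16) and Dll1 at 6.07% (-3.82 ± 0.07; adjusted p = 1.98e-16). Thus the ligand, 1 of the 2 Hes genes, nestin and the proneural factor lay at the bottom of the set.

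Receptor, stem cell factor and glial filament genes lay nearer to their brain level. Notch1 was at 17.1% of the brain level (log2 fold change -2.34 ± 0.05; adjusted p = 1.00e-15) and Sox2 likewise at 17.1% (-2.33 ± 0.06; adjusted p = 2.67e-14). Hes1 was at 24.4% (-1.82 ± 0.09; adjusted p = 4.23e-11) and Vim 28.9% (-1.58 ± 0.04; adjusted p = 2.23e-14). Eomes was at 74.2% in CPM, that is at 57.1, 61.8 and 61.0 CPM in wild type cerebellum against 87.2, 84.2 and 70.8 CPM in wild type male brain. With its own normalisation the edgeR test gave a fold change of 0.861 (-0.22 ± 0.07 on the log2 scale; adjusted p = 0.00699). That call was lost without the first wild type male brain, and in mutant males the difference was 0.03 with an adjusted p of 0.863. Both wild type female brains, which were outside this comparison, had less Eomes than every wild type cerebellum, at 33.4 and 29.1 CPM.

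Per exon length, the order in wild type cerebellum was Vim at 42.1 ± 1.03 RPKM, Eomes at 14.4 ± 0.599 RPKM, Sox2 at 10.9 ± 0.867 RPKM, Nes at 3.20 ± 0.337 RPKM, Hes1 at 2.40 ± 0.256 RPKM, Notch1 at 2.11 ± 0.130 RPKM, Dll1 at 0.973 ± 0.0759 RPKM, Hes5 at 0.622 ± 0.0463 RPKM and Neurog2 at 0.0991 ± 0.0481 RPKM (SD, n = 3). No neighbours in this order overlapped. Eomes stood at rank 7 in the brain and at rank 2 here, and Hes1, below Hes5 in the brain, lay above it in every wild type cerebellum.

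**Figure D4:**
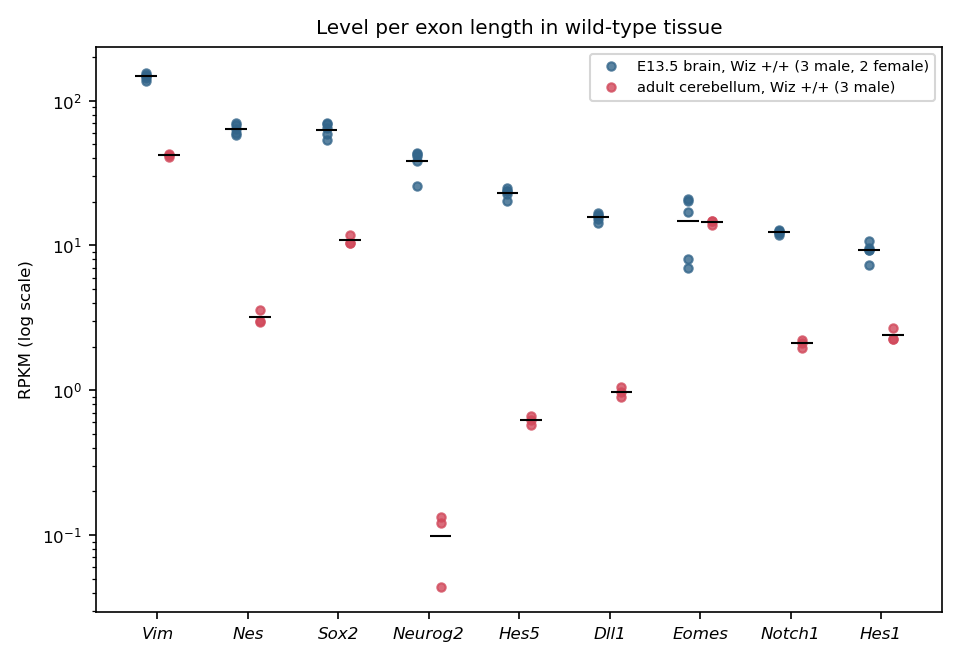
RPKM on a log axis (vertical) for the 9 genes, ordered by their mean in wild type E13.5 brain, with 1 point per animal and black lines at the means of 5 brains (blue) and 3 adult cerebellums (red). Eomes is the only gene whose cerebellar values, 13.7 to 14.9 RPKM, lie inside the range of the brains of both sexes, 7.01 to 21.0 RPKM. The cerebellums are from males, and they lie below the male brains, at 17.0 to 21.0 RPKM.

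Other genes of the pathway and the cell types around it placed these values. All 10 genes of dividing cells were lower in cerebellum, with Mki67, a marker of cycling cells, at 0.685 to 1.79 CPM against 349 to 390 CPM in wild type male brain. Of the 11 Notch receptors and ligands, 9 were lower and 1 higher, the latter being Dner, a noncanonical ligand of Purkinje cells, at 596 to 600 CPM against 229 to 247 CPM. Of the 9 genes listed as Notch targets 6 were lower and 2 higher, namely Hes3 at 35.8 to 37.3 CPM against 0.337 to 0.671 CPM, and Hey1 with a log2 fold change of 0.37. Whether the level of Hes3 follows Notch activity was not tested. Rbpj, the DNA-binding partner of the cleaved receptor, was lower by -1.57 ± 0.04 on the log2 scale. Of the 19 radial glia genes 12 were lower and 5 higher, and the glial transporter gene Slc1a3 was among the latter at 3.33. Of the 17 tested proneural and intermediate progenitor genes 16 were lower and only Neurod1, a granule cell factor, was higher, at 3.34. All 7 granule cell genes, all 6 Purkinje cell genes and 8 of 9 Bergmann glia and astrocyte genes were higher in cerebellum.

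In mutant cerebellum 4 of the 8 tested genes fell. Nes, Eomes, Sox2 and Notch1 passed an adjusted p of 0.05 (edgeR quasi-likelihood test over 15979 genes) and none of the 8 rose, where 2.56% of all genes were called lower and 5.25% in either direction. In each of these 4 genes all 3 mutants lay below all 3 wild types, a separation that 24.3% of genes showed, and none passed the study's lower fold limit of 0.7, which 0.832% of genes passed with the upper limit of 1.3. The median over the 8 genes was -0.21 on the log2 scale against 0.00 over all genes, and 7 of the 8 values lay below 0.

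Nes was at 19.4, 19.1 and 23.0 CPM in wild type and 14.6, 17.6 and 14.9 CPM in mutant cerebellum. Its log2 fold change was -0.38 ± 0.08 (95% interval -0.55 to -0.21; adjusted p = 0.0102), with the third wild type highest and the second mutant nearest to the wild types. Eomes was at 57.1, 61.8 and 61.0 CPM and at 48.2, 56.2 and 46.0 CPM (-0.26 ± 0.06; 95% interval -0.38 to -0.14; adjusted p = 0.0141). The second mutant lay just below the lowest wild type. Sox2 was at 21.3, 21.4 and 24.5 CPM and at 20.1, 18.8 and 18.3 CPM (-0.23 ± 0.06; 95% interval -0.36 to -0.10; adjusted p = 0.0395). Notch1 was at 28.0, 31.6 and 30.4 CPM and at 26.8, 26.0 and 26.5 CPM (-0.18 ± 0.05; 95% interval -0.29 to -0.07; adjusted p = 0.0493). The mutants of Notch1 were closely spaced, and the first wild type lay just above them.

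Most of these calls were lost in some fits that left out 1 animal. Without the third wild type or without the first mutant 0 of the 8 genes passed. Among all genes 187 of 16156 and 280 of 16180 passed then, against 839 of 15979 with every animal kept. Without the third mutant 1 member passed, beside 747 of 16161 genes. Without the second mutant 2 did, beside 632 of 16167 genes, and without the second wild type 3 did. The values kept their sign each time. Without the first mutant the values of Sox2 (-0.27) and Notch1 (-0.19) were as large as with every animal kept, though neither passed. For Nes the value was -0.29 (adjusted p = 0.0838) without the third wild type and -0.33 (adjusted p = 0.0713) without the first mutant.

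The other members did not pass. Vim was at 201, 204 and 194 CPM in wild type and 195, 216 and 213 CPM in mutant cerebellum (log2 fold change 0.06 ± 0.04; 95% interval -0.02 to 0.14; adjusted p = 0.393). Hes1 had -0.17 ± 0.12 (95% interval -0.43 to 0.10; adjusted p = 0.4996) and Dll1 -0.09 ± 0.12 (95% interval -0.33 to 0.15; adjusted p = 0.724). Hes5, near 1 CPM or less, had -0.32 ± 0.29 (95% interval -0.93 to 0.28; adjusted p = 0.584), with the third mutant above the wild types and the other 2 mutants below them. The interval of Hes5 includes a fall of the size seen for Nes. Neurog2 lay below the count filter and was not tested.

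**Figure D5:**
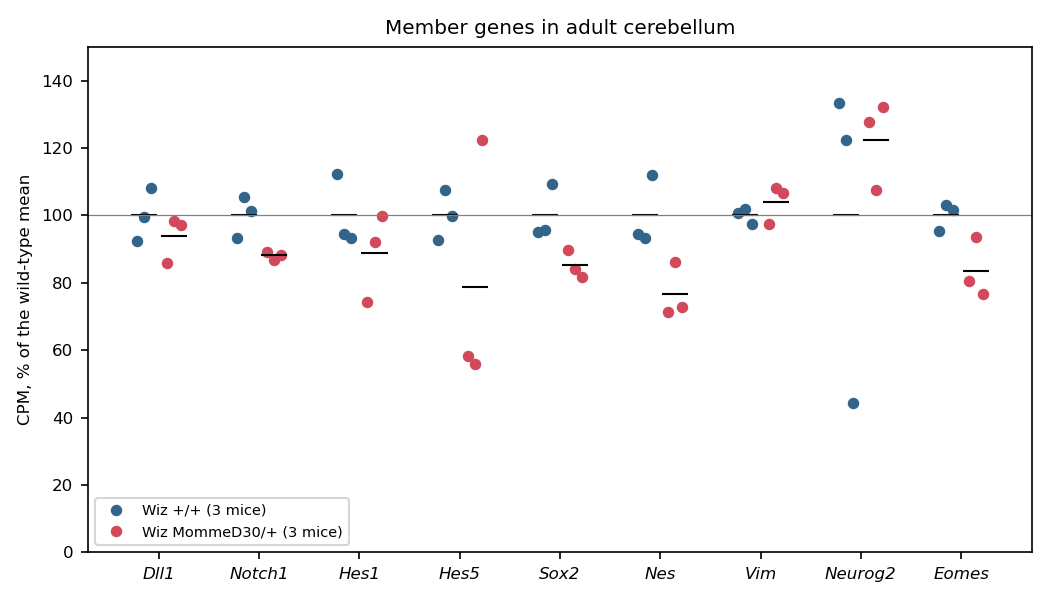
CPM in each adult cerebellum as a percentage of the wild type mean of that gene (vertical axis, from 0), with 1 point per mouse and black lines at the means of 3 Wiz +/+ (blue) and 3 Wiz MommeD30/+ (red) mice. For Nes the mutants sit at 71.4% to 86.1%, below the lowest wild type at 93.2%, while Hes5 and Neurog2 scatter widely on both sides of the wild type mean.

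Among the wider lists in mutant cerebellum, genes passed in both directions, where 5.25% of all genes were called. Of 10 tested Notch receptors and ligands 2 fell, Notch1 and Dlk1, a noncanonical ligand, which was at 2.78, 1.99 and 3.59 CPM in wild type and 1.06, 1.97 and 1.04 CPM in mutant (log2 fold change -1.04 ± 0.24; adjusted p = 0.0173). Of 9 Notch target genes Id3 fell, from 13.6, 13.7 and 14.5 CPM to 9.34, 10.4 and 10.8 CPM (-0.45 ± 0.07; adjusted p = 0.00232). Id3 encodes an inhibitor of basic helix-loop-helix factors and also responds to BMP signalling. Of 22 processing and cofactor genes the coactivator gene Maml3 rose (0.18, adjusted p = 0.0464) and the ubiquitin ligase gene Mib2 fell (-0.12, adjusted p = 0.0365). Of 18 tested radial glia genes Prom1 rose (0.28, adjusted p = 0.00592), and Sox2, Nes and the fatty acid binding protein gene Fabp7 fell (Fabp7 -0.19, adjusted p = 0.0357). Eomes was the only call among 13 tested proneural and intermediate progenitor genes. Of 14 newborn neuron genes the tubulin gene Tubb3 (-0.27, adjusted p = 0.00320) and the neurofilament gene Nefl (-0.23, adjusted p = 0.00880) fell. None of the 6 tested genes of dividing cells passed, and 2 had an unadjusted p under 0.05, as did 19.9% of all genes.

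Markers of other cell types gave these levels beside the 4 falls. The summed level of the 9 Bergmann glia and astrocyte genes was 2964 to 3024 CPM in wild type and 3022 to 3074 CPM in mutant cerebellum. That of the 6 unipolar brush cell genes, Eomes included, was 830.2 to 851 CPM and 829 to 855 CPM. The genotypes overlapped in both sums, and Eomes itself was the only unipolar brush cell gene called. The 6 Purkinje cell genes summed to 2810 to 2870 CPM in wild type and 2925 to 2995 CPM in mutant cerebellum, with no overlap, 1 gene called higher and 4 at an unadjusted p under 0.05. The red blood cell genes summed to 145.0 to 228 CPM in wild type and 266 to 481 CPM in mutant, with 4 of the 5 tested genes higher, and the 7 oligodendrocyte lineage genes to 3943 to 4243 CPM against 3812 to 3989 CPM. The 4 choroid plexus genes summed to 916 CPM in the second mutant and 1677 to 1963 CPM in the other 5 cerebellums. Called genes in the remaining marker lists were few: 1 of 8 endothelial genes was lower, 1 of 9 pericyte and mesenchyme genes higher and 1 lower, 1 of 7 granule cell genes higher and 1 lower, and 0 of 6 microglial genes and 0 of 2 tested brain region genes passed. Within the Bergmann glia and astrocyte list 1 of 9 was higher and 1 lower, and 2 of 7 oligodendrocyte lineage genes were lower. The part of the Purkinje cell, red blood cell, oligodendrocyte and choroid plexus genes in the 4 falls was not tested.

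The genotype difference was compared between the tissues in 1 model of the 12 males. Nes was the 1 of 9 members called, where 0.26% of 17337 genes were called and 0.0923% called lower: its change in cerebellum minus its change in E13.5 brain was -0.57 ± 0.12 (95% interval -0.82 to -0.33; adjusted p = 0.0440). In the mutant mean Nes was 482 CPM against 423 CPM in male brain and 15.7 CPM against 20.5 CPM in cerebellum. The values for Notch1 (-0.25 ± 0.06; adjusted p = 0.103) and Sox2 (-0.31 ± 0.08; adjusted p = 0.169) did not pass, nor did that for Eomes (0.24 ± 0.21; adjusted p = 0.772). The Nes call was lost in 9 of the 12 fits that left out 1 library each; the adjusted p was 0.205 at most. Of the 9 Notch target genes Id3 was the 1 called (-0.53 ± 0.10; adjusted p = 0.0362).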

How the data were processed

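Poly(A) RNA libraries of whole E13.5 brain and adult cerebellum were sequenced as single-end reads. The authors mapped the reads to mm10 with TopHat2 2.0.11 and counted them per Ensembl gene with HTSeq 0.6.1, per the submitters' processing notes. The deposited counts are raw, 1 file per animal. The strand setting, overlap mode and annotation release are not given in the sources used here. The study tested them with DESeq, taking an adjusted p of 0.05 with a fold change under 0.7 or over 1.3.

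Here the counts of 16 libraries were joined. 1134 of 41388 identifiers had no symbol and took at most 0.171% of the counts. CPM used total counts. RPKM used merged exon lengths of the GENCODE annotation of GRCm38, the same assembly as mm10. Genes were filtered by filterByExpr (minimum count 10), TMM-normalised and tested with the edgeR 4.0.16 quasi-likelihood test in R 4.3.3, within each sex, over all brains with sex, in cerebellum, between tissues in wild type males, and for interactions of genotype with sex and with tissue. Each fit used only the groups compared. A gene was called at a Benjamini-Hochberg adjusted p of at most 0.05 over all genes tested. Fits were tested on simulated data. Alternatives were DESeq2 1.42.0 (size factors or Wald test), total-count scaling, no filter, a mean count of at least 50, a replicate block, no sex covariate, and leaving out each library. Where 1 library was left in a group, it was assumed to vary like the others.

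The 9 genes, the pathway and marker lists and the tests were chosen with earlier results of these data known. Genes named besides the members were up to 3 called genes with the smallest p in each direction of each pathway list, and the 3 genes most like each member among those with a mean of at least 5 CPM. Emx1, Tbr1 and Neurod6 come from the lists and were named after their values were seen. The replicates are separate animals, so p-values measure the spread between animals, and counting intervals cover counting error only. The 3 ChIP-seq samples were not analysed here.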

Additional observations from a re-analysis of the deposited data

Results flagged for a closer look

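The genotype difference of Nes in cerebellum differed from that in E13.5 brain in males. The test of the interaction between genotype and tissue gave -0.57 on the log2 scale (edgeR quasi-likelihood test, 3 animals per group, adjusted p = 0.0440). The call was lost with the replicate block (adjusted p = 0.167), with a mean count of at least 50 (adjusted p = 0.0517) and in most fits that left out 1 library. Nes was lower in 3 of 3 mutant cerebellums than in any wild type one, where 24.3% of genes had cerebellum groups that did not overlap. It was higher in 2 of 3 mutant male brains than in any wild type male brain. Tissue and age changed together between the groups, and no cause was tested.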

How the results depend on the processing

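With 2 or 3 animals per group, several calls turned on the test, the filter or 1 animal. With no filter on low counts, 2 members were called in male brain, 1 over all brains and 3 for genotype by tissue. Among all genes 369 of 25431, 217 of 26461 and 416 of 26499 were called in these fits. With DESeq2's Wald test 1 member was called in female brain, 2 over all brains and 2 in cerebellum, where Sox2 and Notch1 were lost. Among all genes 41 of 24969, 185 of 26461 and 596 of 24051 were called there. With a mean count of at least 50, or with the replicate block, 0 members were called for genotype by tissue, beside 54 of 14141 and 13 of 17337 genes. Eomes between the tissues turned to 0.031 in mutant males. With DESeq2 size factors 1 gene of the Notch receptors and ligands, Dlk1, was called in cerebellum, where Notch1 had an adjusted p of 0.0517. The cause of these changes was not tested.

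Leaving out each animal in turn gave 0 to 1 members called in male brain, 0 to 3 in female brain, 0 to 1 over all brains, 0 to 1 for genotype by sex, 0 to 4 in cerebellum and 0 to 2 for genotype by tissue. The Wiz difference in female brain ranged from -0.61 to -0.54 and failed the threshold without either mutant. Fold changes that crossed 0 were those of Vim (-0.049 to 0.020), Hes1 (-0.022 to 0.13), Hes5 (-0.026 to 0.19) and Neurog2 (-0.091 to 0.035) in male brain, Vim (-0.015 to 0.19) and Eomes (-0.062 to 0.70) in female brain, Vim (-0.0095 to 0.056) over all brains, Sox2 (-0.036 to 0.36), Vim (-0.0077 to 0.20) and Hes5 (-0.055 to 0.16) for genotype by sex, and Neurog2 (-0.041 to 0.58) for genotype by tissue.

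Same-numbered animals of the 2 genotypes did not deviate together (correlations from -0.16 to -0.02), so no pairing by replicate number was seen. With so few animals per group, this check cannot exclude a shared litter or batch. The replicate block lost the female Wiz call (-0.57, adjusted p = 0.056) and the Notch1 call in cerebellum (-0.18, adjusted p = 0.055).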
